A study of Mus musculus with 2 samples.

Results

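The 10 genes described here encode the main amino acid carriers of the proximal tubule and their partner proteins, and they were chosen by symbol from the 31058 features of the count tables, all 10 of which were present. They are Slc6a19, Slc6a18, Slc7a9, Slc3a1, Slc1a1 and Tmem27 of the apical membrane, Slc7a7, Slc7a8 and Slc3a2 of the basolateral membrane, and Slc7a12. The values come from 10x Chromium 3' single-cell RNA-seq of total kidney cells of female C57Bl/6 mice aged 9 weeks. The CA3 library came from mice with rhabdomyolysis that received CA3, and the vehicle library from mice with rhabdomyolysis that received vehicle. A compound named CA3 is known as an inhibitor of the transcriptional coactivator YAP1, while the labels give no more than the name. Pax8.rtTA, TetO.Cre and R26.FUCCI2aR were present in the mice of both groups. In this combination a doxycycline-dependent activator under the tubular Pax8 promoter switches on Cre and with it a fluorescent cell cycle reporter. Rhabdomyolysis was thus common to both libraries, and uninjured kidney was not analysed here. Each group was 1 library, and the number of animals pooled in it is not given in the labels. No test was made, and no difference between CA3 and vehicle had a replicate check. Intervals are exact 95% intervals, and they and the floors of 3 counts cover counting error only.

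The proximal tubule takes back nearly all filtered amino acids. Carriers in the apical brush border bring them into the cell by sodium coupling or by exchange, and basolateral exchangers pass them on to the blood. Several of these carriers work only as a complex of a light chain that transports and a heavy chain or partner that brings it to the membrane. Slc7a9 pairs with Slc3a1 (rBAT) for cystine and dibasic amino acids, and loss of either causes cystinuria in humans. Slc7a7 and Slc7a8 pair with Slc3a2 (4F2hc), and Slc6a19 needs Tmem27 (collectrin) to reach the kidney brush border.

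After filtering, 1494 of 1724 CA3 barcodes and 1767 of 1967 vehicle barcodes remained, and 1165 CA3 and 1436 vehicle cells fell into 11 clusters named proximal tubule-like from markers such as Lrp2 and Slc34a1. The barcodes held 3506 to 115815 UMIs (unique molecular identifiers, each counting 1 captured RNA molecule) in the CA3 library and 3784 to 112355 in the vehicle library. Proximal tubule cells had a median of 7895 UMIs in the CA3 library and 7194 in the vehicle library, and a median of 19.6% (CA3) and 18.0% (vehicle) mitochondrial UMIs. Doublets were not removed, and 1 cell barcode occurred in both libraries. The 10 all-segment proximal tubule markers summed to 28290 CPM in CA3 and 28170 CPM in vehicle proximal tubule cells, where CPM is UMIs per 1000000 UMIs of the genes outside the mitochondrial genome. A 3' UMI counts a molecule without regard to the length of its transcript, so CPM values of different genes are set side by side undivided.

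Members lay on 7 chromosomes of mm10, and 2 pairs of them shared a chromosome and strand. Slc6a18 (chr13:73661752-73678023) and Slc6a19 (chr13:73679745-73704865) stood on the minus strand 1721 bases apart with 0 annotated genes between them. Slc7a7 (chr14:54369442-54417780) and Slc7a8 (chr14:54722209-54781946) also shared the minus strand, 304428 bases apart with 23 genes between them. Slc7a9 (chr7:35448796-35466036), Slc3a1 (chr17:85028376-85064236), Slc1a1 (chr19:28835049-28913960), Slc7a12 (chr3:14480697-14505830) and Tmem27 (chrX:164088830-164118860) lay on the plus strand, and Slc3a2 (chr19:8706882-8723369) on the minus strand. Genes on the other strand overlapped Slc6a19 (Slc6a19os), Slc3a1 (Prepl), Slc1a1 (Gm5822 and 4430402I18Rik) and Slc7a7 (Oxa1l). Libraries of this 3' kind keep the strand, while the strand setting of the counting is not given in the sources used here. Of the 31-base words in the transcript ends, 52 of 2489 in Slc6a18, 75 of 2297 in Slc3a2 and 1 of 940 in Slc7a8 also occurred in other genes, and none did in the other 7 members.

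Hepatocyte nuclear factors HNF1 and HNF4 are known regulators of proximal tubule genes, and 4 promoters are shown. Slc3a1 and Tmem27 were found along the whole tubule, with Slc3a1 higher in late cells, while Slc7a7 and Slc7a8 fell together towards its end. Other members shared these patterns. RefSeq promoters of GRCm38.p6, each 250 bases before to 50 bases after the start, matched 8 of the 10 members, with Tmem27 listed under the name Cltrn. For each gene 1 window was read, the nearest to an annotated transcript start, of 5 listed for Slc7a7 and 2 each for Slc7a9 and Tmem27, and the 1 listed for Slc6a19 lay 8144 bases from the nearest such start. Capitals mark an HNF4 word (CAAAGTCCA) or 1 arm of the HNF1 site (GTTAAT, or ATTAAC as it reads from the other strand).
Slc3a1, chr17:85028097-85028396, plus strand: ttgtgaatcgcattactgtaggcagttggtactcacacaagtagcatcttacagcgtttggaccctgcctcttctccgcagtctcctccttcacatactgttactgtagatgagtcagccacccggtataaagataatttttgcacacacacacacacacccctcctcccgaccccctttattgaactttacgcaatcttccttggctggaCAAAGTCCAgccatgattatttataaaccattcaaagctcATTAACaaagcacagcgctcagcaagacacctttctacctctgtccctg
Tmem27, chrX:164089937-164090236, plus strand: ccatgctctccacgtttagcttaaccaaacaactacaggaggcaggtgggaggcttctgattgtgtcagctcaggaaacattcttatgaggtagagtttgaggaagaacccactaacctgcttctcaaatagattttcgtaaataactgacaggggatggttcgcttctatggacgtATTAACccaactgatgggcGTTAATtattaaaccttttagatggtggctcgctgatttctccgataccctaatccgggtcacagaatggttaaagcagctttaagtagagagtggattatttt
Slc7a7, chr14:54417630-54417929, minus strand: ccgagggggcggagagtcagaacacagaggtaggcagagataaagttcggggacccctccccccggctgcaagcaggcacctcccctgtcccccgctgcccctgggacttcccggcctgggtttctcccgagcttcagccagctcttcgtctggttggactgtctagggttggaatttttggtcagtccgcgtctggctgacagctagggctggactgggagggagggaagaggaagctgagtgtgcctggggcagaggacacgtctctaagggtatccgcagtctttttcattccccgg
Slc7a8, chr14:54781837-54782136, minus strand: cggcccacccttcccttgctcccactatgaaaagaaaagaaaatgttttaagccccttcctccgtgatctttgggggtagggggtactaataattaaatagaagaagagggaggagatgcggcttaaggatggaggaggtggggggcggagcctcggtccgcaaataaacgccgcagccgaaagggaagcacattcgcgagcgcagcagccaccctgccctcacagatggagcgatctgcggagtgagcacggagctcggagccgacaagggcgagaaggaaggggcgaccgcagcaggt
The Slc3a1 window held CAAAGTCCA from base 212 and ATTAAC from base 252 of its 300 bases, and the Tmem27 window held ATTAAC from base 178 and GTTAAT from base 197. No such word was found in the windows of the other 6 matched members. Among them were Slc7a7 and Slc7a8, but also Slc7a9 and Slc1a1, which were likewise found along the whole tubule. A link between these words and the patterns was not tested. Both strands of 32851 promoters were searched: 7.10% held 1 arm of the HNF1 site, 0.475% held the HNF4 word and 0.00913% held the whole HNF1 site (GTTAATNATTAAC), of which the arm is a part. A match describes the letters of the window and not a bound site. Hnf4a was measured at 345 CPM in CA3 and 319 CPM in vehicle proximal tubule cells.

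Tmem27 was by far the most abundant member, and Slc7a12 the least. Tmem27, the partner that carries apical Slc6 carriers to the brush border, was at 1472 CPM in CA3 and 1730 CPM in vehicle proximal tubule cells. Slc6a19, the sodium-coupled carrier of neutral amino acids whose loss causes Hartnup disorder in humans, was at 366 CPM (354 to 378) in CA3 and 347 CPM (336 to 358) in vehicle. Among the basolateral genes the order was Slc7a8, then Slc3a2, then Slc7a7 in both libraries. Slc7a8, the exchanger of neutral amino acids known as LAT2, was at 318 CPM (307 to 330) in CA3 and 333 CPM (322 to 344) in vehicle. Its heavy chain Slc3a2 was at 272 CPM in CA3 and 260 CPM in vehicle. Slc7a7, the exit route of dibasic amino acids whose loss causes lysinuric protein intolerance in humans, was at 214 CPM in CA3 and 223 CPM in vehicle.

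The heavy chain Slc3a1 was more abundant than its light chain Slc7a9. Slc3a1 was at 244 CPM in CA3 and 269 CPM in vehicle, and Slc7a9 at 180 CPM (171 to 189) in CA3 and 190 CPM (182 to 199) in vehicle. Slc6a18, an apical carrier of neutral amino acids closely related to Slc6a19, was at 170 CPM (162 to 179) in CA3 and 178 CPM (170 to 186) in vehicle. Slc1a1, the apical carrier of glutamate and aspartate, was at 138 CPM in CA3 and 153 CPM in vehicle. Slc7a12, a light chain of the Slc7 family described in mouse, was at 28.4 CPM in CA3 and 65.0 CPM in vehicle. Of neighbours in this order, the intervals of Slc7a9 and Slc6a18 overlapped in both libraries, and in vehicle alone those of Slc6a19 and Slc7a8 and those of Slc3a1 and Slc3a2 overlapped. Slc3a1 and Slc3a2 changed places between the libraries.

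Outside the proximal tubule, 9 of the 10 members were low in every other cell class, while Slc3a2 was widespread. The 9 were at least 2 times as high in the proximal tubule as in each of the 5 other classes that held at least 30 cells per library, in both libraries, where 6.33% of 10636 genes met the same rule. These classes, named from markers, were thick ascending limb-like (42 CA3 and 72 vehicle cells), distal nephron-like (65 CA3 and 77 vehicle), endothelial-like (49 CA3 and 72 vehicle), mononuclear phagocyte-like (42 CA3 and 39 vehicle) and T or NK cell-like (96 CA3 and 51 vehicle). Proximal tubule cells held 94.3% to 99.3% of the UMIs of these 9 genes and 81.6% of those of Slc3a2. They were 78.0% of the kept CA3 and 81.3% of the kept vehicle cells, so the share of Slc3a2 lay near their share of cells. Slc7a12 had 0 UMIs in all 5 classes of the CA3 library. With 2 smaller classes added, intercalated-like and B cell-like, 5 members met the rule, and the share of all genes was not computed for that comparison. In the 5 B cell-like cells of the vehicle library the proximal tubule markers stood at 30.5% of their proximal tubule level.

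Droplets of other classes contained proximal tubule RNA, and the members were read against it. The 10 all-segment proximal tubule markers, none of them a carrier, stood at 2.55% to 14.2% of their proximal tubule level in the 5 large classes. Slc6a18 was at 3.30 CPM in CA3 and 3.59 CPM in vehicle T or NK cells, which was 0.221 times (0.0268 to 0.800, CA3) and 0.191 times (0.00485 to 1.07, vehicle) the level that the marker share alone would give. The Slc6a18 counts in lymphocytes thus lay at or below background. Tmem27 in T or NK cells was at 92.3 CPM in CA3 and 262 CPM in vehicle, 0.718 times (CA3, 0.542 to 0.932) and 1.44 times (vehicle, 1.13 to 1.81) that level.

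Slc3a2 was at 328 CPM (CA3) and 409 CPM (vehicle) in T or NK cells, above its proximal tubule level in both libraries, with proximal tubule over T or NK ratios of 0.828 (0.716 to 0.961) in CA3 and 0.635 (0.526 to 0.772) in vehicle. That was 13.8 times (CA3) and 15 times (vehicle) what the marker share would give. Slc3a2 is also known as CD98, a surface protein of activated lymphocytes. In the CA3 library its level was 235 CPM in endothelial-like, 169 CPM in mononuclear phagocyte-like, 120 CPM in distal nephron-like and 117 CPM in thick ascending limb-like cells. In the vehicle library these levels were 175, 191, 98.4 and 91.3 CPM in the same order of classes. Slc7a8 also exceeded the marker share in distal segments. In thick ascending limb-like cells Slc7a8 was at 88.2 CPM in CA3 and 70.5 CPM in vehicle, 10.9 times (CA3, 7.38 to 15.4) and 1.80 times (vehicle, 1.34 to 2.37) that share. Slc7a8 was not alone above the share there, since the 5 apical carriers together summed to 91.0 CPM in CA3 and 176 CPM in vehicle. Their sums in the proximal tubule were 1098 CPM (CA3) and 1137 CPM (vehicle), and the marker share was 2.55% (CA3) and 11.8% (vehicle). In distal nephron-like cells Slc7a8 was at 58.3 CPM in CA3 and 84.8 CPM in vehicle, 1.56 times (CA3, 1.15 to 2.08) and 3.02 times (vehicle, 2.46 to 3.68) the share. Slc6a18 in endothelial-like cells was at 61.3 CPM in CA3 and 59.5 CPM in vehicle, 2.53 times (CA3, 1.72 to 3.60) and 3.88 times (vehicle, 2.98 to 4.95) the share. Slc6a18 was not alone in this, since Slc1a1 stood at 3.02 times (CA3, 2.04 to 4.31) and 2.05 times (vehicle, 1.37 to 2.94) the share in these cells, Slc7a7 at 2.01 times (CA3, 1.37 to 2.86) and 2.13 times (vehicle, 1.55 to 2.86), and Tmem27 at 1.94 times (CA3, 1.68 to 2.22) and 1.48 times (vehicle, 1.30 to 1.68).

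**Figure D1:**
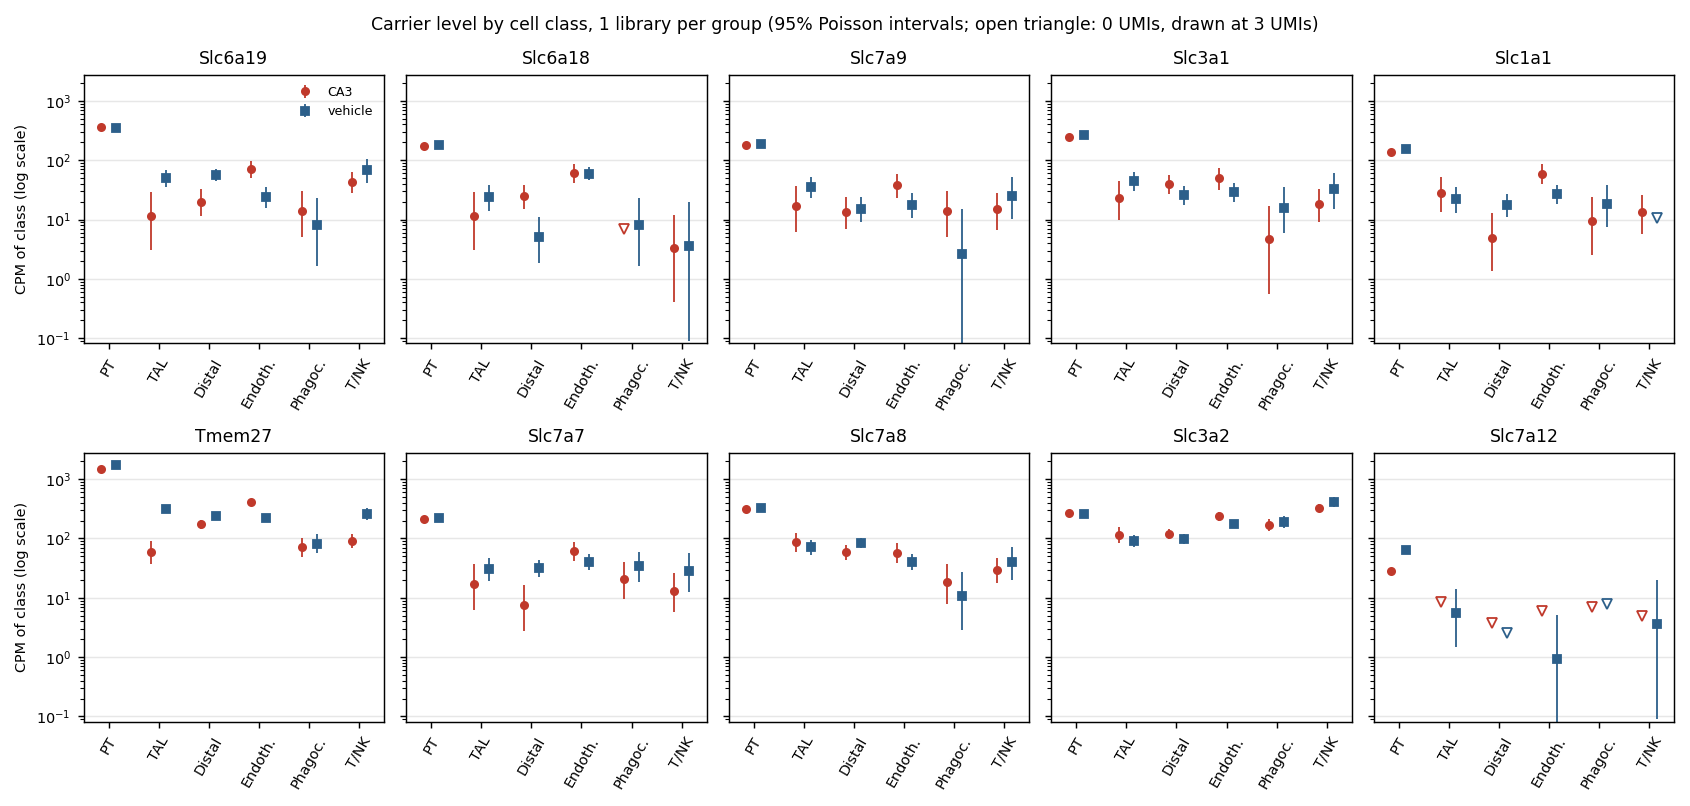
Level of each member (CPM, log scale) by cell class in the CA3 (circles) and vehicle (squares) library, with 95% Poisson intervals; open triangles mark 0 UMIs and stand at the level of 3 UMIs (PT, proximal tubule; TAL, thick ascending limb; Distal, distal nephron; Endoth., endothelial; Phagoc., mononuclear phagocyte; T/NK, T or NK cell). Slc3a2 is the member whose level in T or NK cells, 328 CPM in CA3 and 409 CPM in vehicle, lies above its proximal tubule level.

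In cells thinned to 2000 UMIs each, which left out 0 cells, the share with at least 1 UMI followed nearly the same order. Tmem27 was detected in 84.5% of CA3 and 85.1% of vehicle proximal tubule cells, beside 10.4% of CA3 and 17.6% of vehicle T or NK cells, which should lack it. Slc6a19 was detected in 34.9% of CA3 and 33.8% of vehicle proximal tubule cells, beside 4.17% of CA3 and 9.80% of vehicle T or NK cells. For Slc6a18 the shares were 19.1% in CA3 and 20.3% in vehicle, beside 0 of 96 CA3 and 0 of 51 vehicle T or NK cells, where the floor of 3 counts limits the share of cells with a UMI to 3.12% (CA3) and 5.88% (vehicle). Slc3a2 was detected in fewer proximal tubule cells (31.2% CA3, 30.3% vehicle) than T or NK cells (44.8% CA3, 43.1% vehicle). T or NK cells had medians of 6082.5 (CA3) and 5235 (vehicle) UMIs before thinning. The median share over the 10 members was 27.6% in CA3 and 28.9% in vehicle, and without thinning 64.5% in CA3 and 62.8% in vehicle.

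Along the tubule the members split into carriers of the early part, carriers of the late part and carriers found throughout. Clusters were ordered by Slc5a2, the glucose carrier of the early proximal tubule, which is no member. Clusters 3 and 8 were early (422 CA3 and 510 vehicle cells), clusters 7, 0 and 14 middle (292 CA3 and 312 vehicle) and clusters 10, 6, 1 and 17 late (294 CA3 and 399 vehicle). Clusters 9 and 13, led by stress genes such as Cyr61 and Fosb, were kept apart (157 CA3 and 215 vehicle cells). The boundaries, 50% and 10% of the highest cluster's Slc5a2 level, fell between cluster 8 (59.8%) and cluster 7 (19.1%), and between cluster 14 (12.9%) and cluster 10 (6.23%). The 9 markers of the late segment S3 summed to 261, 588 and 912 CPM in early, middle and late cells of the CA3 library and to 274, 619 and 1180 CPM in those of the vehicle library. Cluster 10 was called late by Slc5a2 although Gatm, an early marker, was at 4409 CPM there and at 4631 CPM in the early cluster 8.

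At least 2 times higher in early than in late cells of both libraries were 4 of 10 members, Slc6a19, Slc7a7, Slc7a8 and Slc3a2, and 15% of 9829 genes were so. At least 2 times higher in late cells were Slc6a18 and Slc7a12, 2 of 10, where the background was 2.85%. The median of all genes was already 0.21 (log2) higher in early cells of each library. Malat1, a nuclear RNA, made up 10.7% of early and 0.471% of late UMIs in CA3. In vehicle it made up 10.8% of early and 0.398% of late UMIs. Summed over both libraries, it also differed between clusters of the same stretch. Early cluster 3 was at 182020 CPM and early cluster 8 at 1143 CPM, middle cluster 14 at 134793 CPM and middle cluster 0 at 1706 CPM. Cluster 13, late by Slc5a2 but kept apart as stress, was at 136348 CPM. Among cells with under 1% Malat1 the same 4 members were higher early, where 2.65% of genes were, and the same 2 higher late, where 2.22% were. Among cells with at least 1% Malat1, with the stress clusters placed by Slc5a2, Slc3a2 dropped out with early over late ratios of 1.53 in CA3 and 1.83 in vehicle, leaving 3 members where 2.88% of genes were higher early, and the same 2 members stayed higher late, where 3.07% were.

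Slc6a19 had the steepest apical fall. Its level was 600, 269 and 87.0 CPM in early, middle and late cells of the CA3 library and 584, 254 and 70.0 CPM in those of the vehicle library. The early over late ratio was 6.90 (5.88 to 8.13) in CA3 and 8.33 (7.11 to 9.82) in vehicle. Among cells with under 1% Malat1 it was 4.53 in CA3 and 6.05 in vehicle. Its neighbour on chromosome 13, Slc6a18, ran the other way, at 32.8, 223 and 256 CPM in CA3 and 30.9, 253 and 252 CPM in vehicle. The Slc6a18 ratio of early over late was 0.128 (0.104 to 0.157) in CA3 and 0.122 (0.0993 to 0.15) in vehicle. Slc6a18 was thus low in the early stretch, and its pooled middle and late levels were alike in the vehicle library. The vehicle clusters inside these stretches were unlike. They ran from 100 CPM (cluster 7) to 405 CPM (cluster 14) in middle cells. In late cells they ran from 16.2 CPM (cluster 10) to 870 CPM (cluster 17).

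The 3 basolateral genes fell together. Slc7a8 was at 516, 225 and 73.9 CPM in early, middle and late cells of the CA3 library and at 529, 246 and 93.7 CPM in those of the vehicle library. The early over late ratio of Slc7a8 was 6.99 (5.88 to 8.36) in CA3 and 5.64 (4.91 to 6.51) in vehicle. Slc7a7 was at 342, 159 and 72.3 CPM in CA3 and at 342, 170 and 77.2 CPM in vehicle, with ratios of 4.73 (3.96 to 5.69) in CA3 and 4.43 (3.79 to 5.20) in vehicle. The heavy chain Slc3a2, which both light chains need, fell less, at 363, 234 and 115 CPM in CA3 and 365, 226 and 103 CPM in vehicle. Its ratios were 3.16 (2.73 to 3.66) in CA3 and 3.53 (3.08 to 4.06) in vehicle.

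The cystine carrier, the glutamate carrier and Tmem27 differed less between the stretches. Slc7a9 was at 194, 199 and 124 CPM in early, middle and late CA3 cells and at 204, 190 and 135 CPM in vehicle cells. Slc3a1 was higher in late than in early cells, at 189, 288 and 272 CPM in CA3 and 199, 298 and 321 CPM in vehicle, with early over late ratios of 0.695 (0.618 to 0.781) in CA3 and 0.620 (0.559 to 0.687) in vehicle. Slc1a1 was at 122, 148 and 136 CPM in CA3 and 136, 160 and 143 CPM in vehicle. The intervals of its pooled ratio held 1 in both libraries (0.765 to 1.05 in CA3 and 0.824 to 1.09 in vehicle). Split by Malat1 they lay below 1. Under 1% Malat1 the ratio was 0.777 (0.627 to 0.960) in CA3 and 0.800 (0.662 to 0.965) in vehicle. From 1% upwards it was 0.692 (0.588 to 0.816) in CA3 and 0.796 (0.690 to 0.918) in vehicle. Late clusters ran from 27.4 CPM (cluster 10) to 339 CPM (cluster 17), both libraries summed. Tmem27 was at 1648, 1682 and 1199 CPM in CA3 and 1981, 2005 and 1333 CPM in vehicle. Slc34a1, the phosphate carrier used here as a landmark, had early over late ratios of 1.91 in both libraries.

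**Figure D2:**
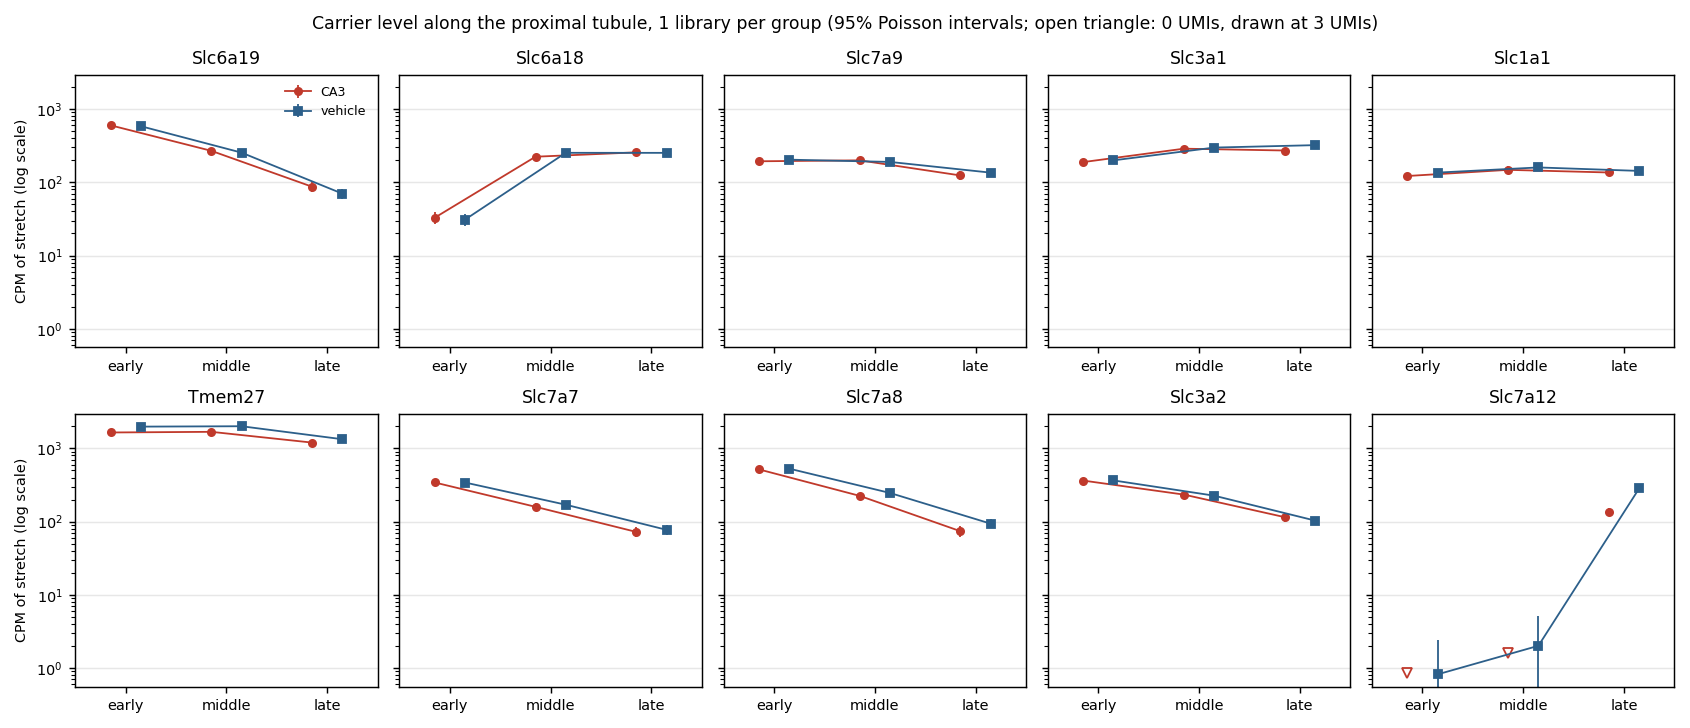
Level of each member (CPM, log scale) in early, middle and late proximal tubule cells of the CA3 (circles) and vehicle (squares) library, with 95% Poisson intervals; open triangles mark 0 UMIs and stand at the level of 3 UMIs. Slc6a19 lies at 600 CPM in early and 87.0 CPM in late CA3 cells, while Slc6a18 lies at 32.8 and 256 CPM.

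Slc7a12 was confined to the end of the tubule as far as these counts reach. It had 0 UMIs in early and middle cells and 259 UMIs in late cells of the CA3 library, and 3, 4 and 671 UMIs in early, middle and late cells of the vehicle library. Late cells stood at 137 CPM in CA3, at least 158-fold higher than the floor of 3 UMIs in all early CA3 cells (0.864 CPM). In vehicle the late level was 283 CPM and the early over late ratio 0.00290 (0.000596 to 0.00850). Nearly all of it came from cluster 17, whose leading genes included Slc22a7, Serpina1f and Kap, and which held 94.7% of the proximal tubule UMIs of Slc7a12 in CA3 and 93.4% in vehicle. The members had been left out of the clustering. Without cluster 17, Slc6a18 was the 1 member at least 2 times higher in late cells of both libraries.

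Over the 11 clusters, 9 members peaked in cluster 3, 9 or 17, near the ends of the Slc5a2 order. Summed over both libraries, Slc6a19 (728 CPM) and Slc7a8 (639 CPM) were highest in early cluster 3. Slc7a7 (355 CPM), Slc3a2 (393 CPM) and Slc7a9 (241 CPM) were highest in stress cluster 9, whose Slc5a2 level was 74.5% of the maximum. Slc6a18 (897 CPM), Slc3a1 (947 CPM), Slc1a1 (339 CPM) and Slc7a12 (2475 CPM) were highest in cluster 17, and Tmem27 (2395 CPM) in middle cluster 0. In cluster 17 Slc6a19 was at 10.1 CPM in CA3 and 11.5 CPM in vehicle, the lowest of its 11 values in each library. Slc7a9 reached 131 CPM in CA3 and 180 CPM in vehicle there, beside 857 CPM (CA3) and 982 CPM (vehicle) of its heavy chain Slc3a1. Slc7a13, known in mouse as another late partner of Slc3a1, had 1 UMI in CA3 and 3 UMIs in vehicle proximal tubule cells.

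**Figure D3:**
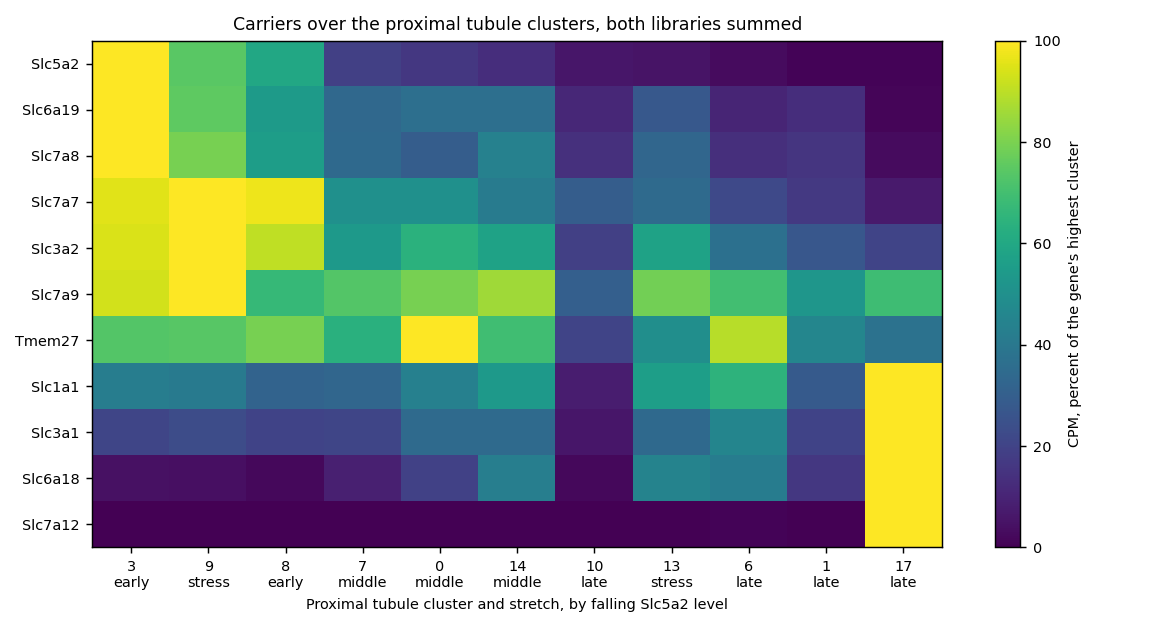
Colour gives the level of each member in each proximal tubule cluster, both libraries summed, as percent of the gene's highest cluster; clusters run by falling Slc5a2 level, which is the top line and set the order. Slc6a19 and Slc7a8 peak in cluster 3 (728 and 639 CPM), and Slc1a1, Slc3a1, Slc6a18 and Slc7a12 in cluster 17 (339, 947, 897 and 2475 CPM).

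The pattern over clusters placed members beside other genes. By Pearson's r of log2(CPM + 1) over the 11 clusters, among 8155 genes that left out the members, Slc6a19 and Slc7a8 were both most like Sirpa (r = 0.992 and 0.986), and Slc7a8 next like Slc43a2 (0.984), itself an amino acid carrier. Slc7a7 was most like Slc6a8 (0.986), the creatine carrier. Slc6a18 was most like Slc10a2 (0.981), the apical bile acid carrier, and Slc3a1 most like Abhd2 (0.993). Slc7a9 was most like Il6st (0.978), Slc1a1 like Prnp (0.987), Tmem27 like Smpdl3a (0.982), Slc3a2 like H6pd (0.974) and Slc7a12 like Kcnk1 (0.976), followed by the organic anion carrier Slc22a19 (0.975). Between members r was 0.993 for Slc6a19 with Slc7a8, above the 0.992 of Slc6a19 with Sirpa, 0.96 for Slc6a19 with Slc7a7, 0.96 for Slc3a1 with Slc1a1, 0.58 for Slc7a9 with its heavy chain Slc3a1 and -0.58 for Slc6a19 with Slc6a18. These values describe 11 clusters that share libraries, depth and Malat1 differences.

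Seen by membrane side, apical carriers made up more of the carrier transcripts in later parts of the tubule. The 5 apical carriers, counted without their partner Tmem27, together had 3948 UMIs and the 3 basolateral genes, with the heavy chain Slc3a2 among them, 4240 UMIs in early CA3 cells, a ratio of 0.931 (0.891 to 0.973), and in early vehicle cells 4218 and 4518 UMIs, a ratio of 0.934 (0.895 to 0.974). In middle cells the ratio was 1.83 (1.70 to 1.96) in CA3 and 1.80 (1.68 to 1.93) in vehicle. In late cells it reached 3.35 (3.03 to 3.71) in CA3 and 3.36 (3.08 to 3.68) in vehicle. In CPM the apical sum was 1137, 1128 and 875 in early, middle and late CA3 cells and 1153, 1154 and 922 in vehicle cells. The basolateral sum was 1222, 617 and 261 CPM in CA3 and 1235, 642 and 274 CPM in vehicle. Both sums were thus lower in late than in early cells, the basolateral sum the more so. The late clusters were unlike each other, and cluster 10 did not share the higher ratio. It stood at 1.15 (0.880 to 1.49) in CA3 and 0.860 (0.695 to 1.06) in vehicle. The ratios of CA3 and vehicle lay within each other's intervals in each of these stretches. With Tmem27 counted on the apical side, the apical sum was the larger in every stretch. The ratio was then 2.28, 4.55 and 7.94 in early, middle and late CA3 cells and 2.54, 4.92 and 8.22 in vehicle cells. The early ratio without Tmem27 turned to the other side of 1 under coarser clustering, at 1.05 in CA3 and 1.04 in vehicle, and under a stricter cell filter in CA3 alone, at 1.02. In T or NK cells, where Slc3a2 is the main member, the ratio was 0.249 in CA3 and 0.271 in vehicle.

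**Figure D4:**
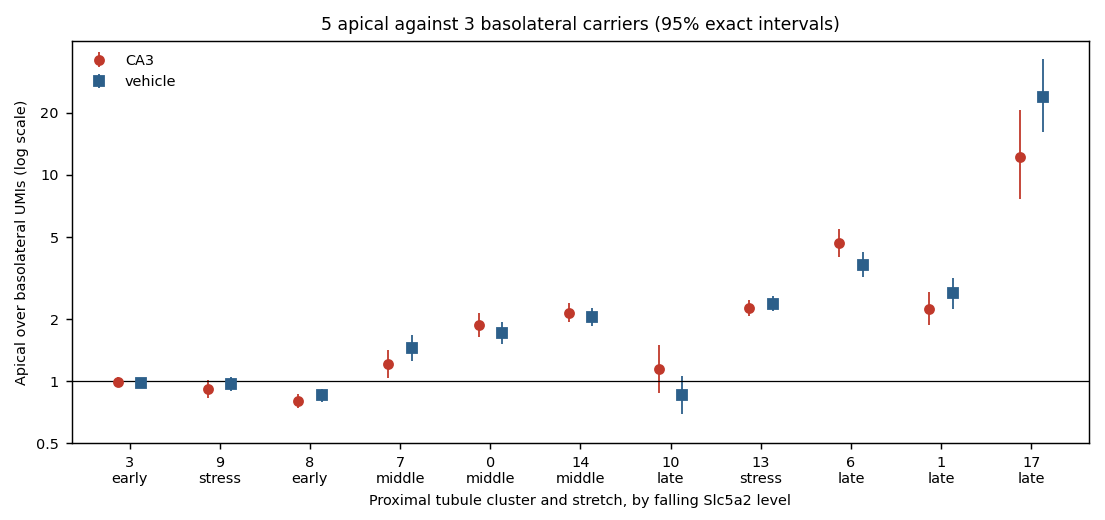
UMIs of the 5 apical carriers, Tmem27 left out, over UMIs of the 3 basolateral genes (log scale) in each proximal tubule cluster, by falling Slc5a2 level, for the CA3 (circles) and vehicle (squares) library with exact 95% intervals; the line marks 1. The ratio is lowest in cluster 8 for CA3 (0.801) and highest in cluster 17 for both libraries (12.2 in CA3 and 23.8 in vehicle). Late cluster 10 lies at 1.15 in CA3 and 0.860 in vehicle.

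Ratios of transcripts between members differed along the tubule, both for partners in 1 transporter and for separate carriers. Among partners, Slc3a1 over Slc7a9 was 0.975, 1.44 and 2.19 in early, middle and late CA3 cells and 0.979, 1.57 and 2.37 in vehicle cells. Tmem27 exceeded Slc6a19 2.74, 6.25 and 13.8 times in CA3 and 3.39, 7.89 and 19.0 times in vehicle. Slc3a2 over Slc7a7 was 1.06, 1.47 and 1.59 in CA3 and 1.07, 1.33 and 1.34 in vehicle. Slc3a2 over Slc7a8, its other light chain, was 0.704, 1.04 and 1.56 in CA3 and 0.691, 0.918 and 1.10 in vehicle. Among separate carriers, Slc6a18 over Slc6a19 was 0.0547, 0.831 and 2.95 in CA3 and 0.0529, 0.994 and 3.60 in vehicle. Slc7a8 over Slc7a7 was 1.51, 1.41 and 1.02 in CA3 and 1.55, 1.45 and 1.21 in vehicle.

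In cells thinned to 2000 UMIs, the 2 Slc6 neighbours were seen together in 3.52% of CA3 and 3.90% of vehicle proximal tubule cells, and without thinning in 23.4% of CA3 and 21.6% of vehicle cells. At 2000 UMIs Slc6a19 was detected in 18.4% of the 223 CA3 proximal tubule cells with Slc6a18 and in 38.9% of the 942 without it. In the vehicle library these shares were 19.2% of 292 cells and 37.5% of 1144 cells. Slc6a18 was detected in 4.27% of early and 29.6% of late CA3 cells and in 3.53% of early and 28.1% of late vehicle cells. Slc6a19 was detected in 52.4% of early and 12.2% of late CA3 cells and in 52.2% of early and 9.77% of late vehicle cells. Within a stretch the gap was smaller in CA3: in early CA3 cells Slc6a19 was detected in 9 of the 18 with Slc6a18 and 52.5% of the 404 without, and in late CA3 cells in 9.20% of 87 and 13.5% of 207. In vehicle it was detected in 27.8% of the 18 early cells with Slc6a18 and 53.0% of the 492 without, and in 4.46% of 112 and 11.8% of 287 late cells. Of the partner genes, Slc3a1 was detected in 35.9% of CA3 cells with Slc7a9 and 29.1% without (vehicle 32.3% and 32.7%). Slc3a2 was detected in 36.8% of CA3 cells with Slc7a7 and 29.2% without (vehicle 40.5% and 26.4%). With and without Slc7a8 it was at 38.5% and 27.6% in CA3 (vehicle 40.3% and 25.4%). Tmem27 was detected in 86.5% of CA3 cells with Slc6a19 and 83.4% without (vehicle 88.9% and 83.2%). By stretch, Slc3a2 with and without Slc7a7 was at 44.8% and 36.8% in early CA3 cells (vehicle 44.7% and 39.9%). In late CA3 cells it was at 14.3% and 15.8% (vehicle 15.9% and 16.1%).

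CA3 and vehicle proximal tubule cells had nearly the same levels of 9 members, and Slc7a12 was the exception. Past 1.5 times in either direction was 1 of 10 members, Slc7a12, where 7.37% of 11726 genes were, and 3.59% were lower in CA3. Slc7a12 had 263 UMIs (28.4 CPM) in CA3 and 687 UMIs (65.0 CPM) in vehicle cells, a ratio of 0.438 (0.379 to 0.506). The other 9 ratios lay between 0.851 and 1.05. The median log2 ratio of the 10 members was -0.07, and that of all genes 0.01. By stretch the members past 1.5 times were 0 of 9 in early cells, with 7.98% of genes past it, 0 of 9 in middle cells, with 11.6%, and 1 of 10 in late cells, with 12.6%. In stress cells they were 0 of 9, with 10.9%.

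The lower Slc7a12 level in CA3 went with fewer cells of cluster 17. Cluster 17 made up 11 of 1165 proximal tubule cells in CA3 (0.944%, 0.472 to 1.68) and 33 of 1436 in vehicle (2.30%, 1.59 to 3.21). Inside the cluster Slc7a12 was at 2511 CPM in CA3 and 2462 CPM in vehicle, a ratio of 1.02 (0.878 to 1.18) that rests on 11 CA3 cells. The 3 cells with most Slc7a12 held 59.7% of its CA3 and 30.4% of its vehicle UMIs, and without 3 top cells of each library the ratio was 0.253. Outside the cluster 14 UMIs in 6 of 1154 CA3 cells and 45 UMIs in 18 of 1403 vehicle cells remained, a ratio of 0.351. In late cluster 6 it was at 15.3 CPM in CA3 and 36.5 CPM in vehicle, a ratio of 0.419 (0.182 to 0.885) from 10 CA3 and 29 vehicle UMIs. Slc22a7, a late marker, had 38.5 CPM in late CA3 and 78.9 CPM in late vehicle cells, and Kap, a gene of late tubule cells under androgen control, had 6902 CPM in late CA3 and 9548 CPM in late vehicle cells. With 1 library per group, a difference in the cells sampled cannot be told apart from the treatment.

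Tmem27 showed a smaller difference that recurred across clusters. Its ratio of CA3 over vehicle was 0.851 (0.832 to 0.870) in the proximal tubule, 0.832 (0.803 to 0.861) in early, 0.839 (0.800 to 0.879) in middle, 0.899 (0.852 to 0.95) in late and 0.807 (0.767 to 0.849) in stress cells. It was lower in CA3 in 10 of 11 clusters, with 8 intervals below 1 and 0 above. The exception was cluster 17, at 1029 CPM in CA3 and 851 CPM in vehicle. None of these ratios passed 1.5 times, and clusters of a library are not replicates. The landmark Lrp2 was at 0.896 and Slc34a1 at 1.04 on the same scale of CA3 over vehicle.

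The other ratios in the proximal tubule were 1.05 (1.01 to 1.11) for Slc6a19, 1.05 (0.990 to 1.10) for Slc3a2, 0.962 (0.905 to 1.02) for Slc7a7 and 0.956 (0.910 to 1.0) for Slc7a8. Those of the cystine carrier chains were 0.905 (0.856 to 0.957) for Slc3a1 and 0.946 (0.886 to 1.01) for Slc7a9. Slc1a1 was at 0.905 (0.841 to 0.975) and Slc6a18 at 0.956 (0.894 to 1.02). In late cells the widest differences after Slc7a12 were those of Slc7a8, 73.9 CPM in CA3 and 93.7 CPM in vehicle (0.789, 0.634 to 0.979), and Slc6a19, 87.0 CPM in CA3 and 70.0 CPM in vehicle (1.24, 0.996 to 1.55). In cluster 17 Slc3a2 was at 161 CPM in CA3 and 49.8 CPM in vehicle, from 16 CA3 and 13 vehicle UMIs. Markers of other cells inside the proximal tubule class also differed: the 8 mononuclear phagocyte markers, all 8 with a UMI, summed to 113 CPM in CA3 and 56.3 CPM in vehicle, and the 5 erythroid markers, all 5 with a UMI, to 277 CPM in CA3 and 839 CPM in vehicle. Their part in the ratios was not tested.

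**Figure D5:**
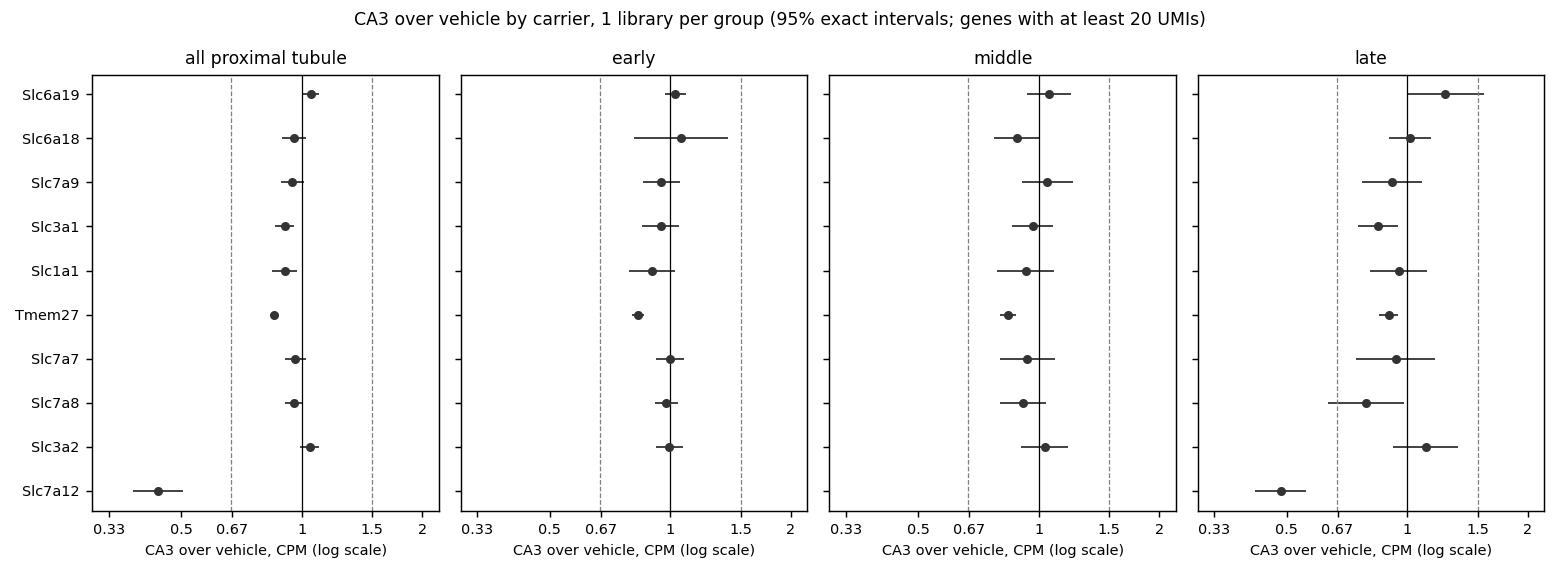
Ratio of CA3 over vehicle CPM (log scale) for each member in all, early, middle and late proximal tubule cells with exact 95% intervals; dashed lines mark 1.5 times in either direction, and genes under 20 UMIs are left out. Slc7a12 lies at 0.438 in all and 0.483 in late cells, outside the dashed lines, and the other ratios lie inside them.

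Of 40 further amino acid transport genes and their regulators, 25 had at least 20 UMIs in the proximal tubule, 2 were past 1.5 times higher in CA3, where 3.78% of all genes were, and 0 were lower. The 2 were Slc1a4 (29 UMIs in CA3 and 17 in vehicle, ratio 1.95, 1.04 to 3.79) and Slc7a4 (14 UMIs in CA3 and 10 in vehicle, ratio 1.60, 0.662 to 4.03), both scarce. At a lower limit, 25% higher or 20% lower in CA3, 6 of the further genes and 1 of the 10 members (Slc7a12) passed, where 18.8% of all genes did. The median log2 ratio of the 25 was 0.11, beside 0.01 for all genes. Among the most abundant were Hnf4a, Slc6a6, Slc6a20b, Slc43a2, Slc16a10, Slc36a1, Slc15a2 and Slc6a13. Slc6a6, the taurine carrier, was at 278 CPM in CA3 and 294 CPM in vehicle. Slc6a20b was at 185 CPM in CA3 and 192 CPM in vehicle. Slc43a2, a basolateral exit path of neutral amino acids, was at 130 CPM in CA3 and 98.6 CPM in vehicle (1.32, 1.22 to 1.44). Slc36a2, Slc7a10 and Slc6a12 had 0 UMIs in proximal tubule cells of both libraries.

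These genes also differed along the tubule. Of 20 with at least 20 UMIs in each library, 7 were at least 2 times higher early, where 15% of all genes were, and 3 at least 2 times higher late, where 2.85% were, in both libraries. The basolateral carriers Slc43a2 and Slc16a10 fell with Slc7a7 and Slc7a8: Slc43a2 had early over late ratios of 7.51 (5.74 to 10.0) in CA3 and 6.45 (5.0 to 8.44) in vehicle, and the aromatic amino acid carrier Slc16a10 ratios of 5.04 (3.79 to 6.82) in CA3 and 7.34 (5.44 to 10.1) in vehicle. Slc36a1, a proton-coupled carrier, fell likewise (3.68 in CA3 and 6.16 in vehicle). The peptide carrier Slc15a2 ran with Slc6a18, with ratios of 0.379 (0.305 to 0.470) in CA3 and 0.314 (0.257 to 0.382) in vehicle, and Slc6a13 had ratios of 0.283 in CA3 and 0.392 in vehicle. Hnf4a was level, at 1.02 (0.928 to 1.13) in CA3 and 1.09 (0.994 to 1.20) in vehicle. Of 21 of these genes, 8 were at least 2 times as high in the proximal tubule as in each of the 5 other classes, where 6.33% of all genes were, among them Slc6a20b, Slc36a1 and Hnf4a.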

How the data were processed

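The authors deposited UMI counts without normalization, made with Cell Ranger 3.0.1 on mm10 per the submitters' processing notes. Cells were kept from 500 genes upwards and up to 50% mitochondrial UMIs, and 2000 variable genes, without the carriers, were clustered in scanpy 1.11.5 (30 components, 15 neighbours, resolution 1). No doublet caller was run. Classes were named from 23 marker lists. UMIs were summed per library and class. With 1 library per group no test was made: ratios carry conditional binomial, levels Poisson and shares Clopper-Pearson intervals. Those of the ratios alone were checked, on simulated Poisson counts that hold no spread between cells or libraries. Genes needed 20 UMIs in the cells compared. All 10 members are named, and of the 40 others the 10 most abundant, those past 1.5 times and those at 0, except genes not reported here. Members and lists were chosen with earlier results of these data known. The minimum of 30 cells per class, and the names of early over late ratios among the 40, were chosen after seeing the data. Alternatives changed the cell filter, clustering, thinning, scaling, stretch rule, fold and cells left out.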

Additional observations from a re-analysis of the deposited data

How the results depend on the processing

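No paired analysis was possible because each group has 1 library. Of the counts and medians recomputed under alternatives, 127 stayed within 1.5 times or their interval and 14 moved. Of the values of single genes and membrane sides, 436 stayed and 206 moved. A further 5, already past their fold limit or, for membrane sides, off 1, turned to the other side of 1. Values within their limit that crossed 1 were counted as stayed or moved. An example was Slc1a1 early over late in CA3, at 0.895 with alternatives of 0.326 to 1.35. The ratio of CA3 over vehicle stayed at 0.253 to 0.572 for Slc7a12, 0.843 to 0.880 for Tmem27 and 0.863 to 1.10 for the other members. Members higher late numbered 1 at resolution 0.5 (Slc7a12), 4 with stretches set by summed markers (Slc3a1 and Slc1a1 added) and 1 without cluster 17 (Slc6a18), where 1.79%, 4.11% and 2.46% of all genes were. Members and stretches past 1.5 times numbered 2 at resolution 0.5, 2 with each library clustered alone (Slc6a19 late added) and 2 with summed markers, where Slc7a12 passed in middle and Slc3a2 in late cells. Shares of all genes by stretch were not computed for these alternatives. In the main setting 25 of the 40 other genes had the 20 UMIs needed. Among those with enough UMIs, 4 passed at resolution 2, where 8.13% of all genes did. Without stress clusters 1 passed (7.62% of all genes), and at the limit of 25% higher or 20% lower 6 did (18.8%). The median share of cells was 64.5% in CA3 and 62.8% in vehicle without thinning, and 14.7% in CA3 and 16.4% in vehicle at 1000 UMIs. With all classes compared, 5 members kept to the proximal tubule, and the share of all genes was not computed for that comparison. Apical over basolateral in early cells turned to 1.02 in CA3 under a filter of 1000 genes and 25% mitochondrial UMIs, to 1.05 in CA3 and 1.04 in vehicle at resolution 0.5, and to 2.28 in CA3 and 2.54 in vehicle with Tmem27 counted as apical. Early over late ratios moved most under summed markers (Slc6a19 44.5 in CA3 and 37.4 in vehicle), where Slc7a8 had 0 late UMIs in CA3 and no ratio. The causes were not tested. Alternatives on Malat1, on clusters 10 and 17, on cells above 30000 UMIs, on landmark scaling, on Tmem27 as apical and on the classes compared were chosen after seeing the data.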
